A study of Mus musculus with 11 samples.

Results

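Primary neurospheres grown from mouse (Mus musculus) embryos at E15.5 without any treatment were profiled by RNA sequencing of total RNA, and the 6 control libraries among the 11 of the study are described here. They are every sample titled as a control, a rule that uses no expression value. The source is primary neurospheres, the tissue embryonic brain and the treatment none. The other 5 libraries came from embryos with Klf5 overexpression and serve no comparison here. The study concerns Klf4 and Klf5 in the fate of neural precursors, and the controls give the starting state against which it reads Klf5. The sources used here do not give the strain, brain region, culture medium, growth factors, passage or the way Klf5 was overexpressed. The labels count 6 control embryos, so each control library was treated as 1 embryo, numbered 1 to 6 as in the labels. All levels are TPM (reads per transcript length, scaled to the total of the library), the SD is over these 6 libraries, and the CV is the SD divided by the mean.

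Neurospheres are floating clusters that neural stem and progenitor cells form when kept dividing in culture. In the embryonic forebrain such cells are radial glia, which line the ventricle, carry the intermediate filament nestin and the transcription factor Sox2, and give neurons first and glia later. Olig1 and Olig2 are basic helix-loop-helix factors of ventral progenitors and of the oligodendrocyte lineage. Dorsal (pallial) and ventral (subpallial) telencephalic progenitors are told apart by factors such as Emx1 and Neurog2 against Gsx2 and the Dlx family.

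Several of the most abundant rows are short, or share their sequence with another row, and the sequences of some of them are shown first. Gm23935, annotated as a miRNA on chromosome 16, ranked second of all rows at 80199 ± 16123 TPM (SD, n = 6). Gm24270 on chromosome 9 ranked 17 at 2191 ± 418 TPM. Both are 57 bases long, and the printed sequences are identical, so a read lying within them cannot be assigned to either by its sequence. The flanking bases were not compared, and the cause of the difference between their levels was not tested. Positions are on GRCm38 with the GENCODE M21 annotation, and sequences are from its transcripts, 5′ to 3′.
Gm23935, chr16:11144125-11144181 (+): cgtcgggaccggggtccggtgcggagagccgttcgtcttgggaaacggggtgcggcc
Gm24270, chr9:56223715-56223771 (-): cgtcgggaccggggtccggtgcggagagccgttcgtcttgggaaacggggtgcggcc

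Other short rows lay inside exons of larger transcripts. Gm27597, an annotated miRNA of 80 bases at 1668 ± 155 TPM, lies in the coding sequence of Rpl19, a ribosomal protein gene that was itself at 954 TPM. Gm27733, a noncoding row of 68 bases at a mean of 69.9 TPM, lies in an exon of Xist, the RNA that silences 1 X chromosome in female cells, which was at a mean of 50.4 TPM. They are shown because their letters are letters of the host transcript, so that neither level can be read apart from its host.
Gm27597, chr11:98029413-98029492 (+): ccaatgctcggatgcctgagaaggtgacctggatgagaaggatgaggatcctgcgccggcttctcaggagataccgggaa
Gm27733, chrX:103461218-103461285 (-): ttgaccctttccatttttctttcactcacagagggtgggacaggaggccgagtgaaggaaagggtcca

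A nuclear stretch of chromosome 1 that copies the mitochondrial genome also stood among the top 30 rows. Gm10925 was at 3922 ± 547 TPM and is identical over all its 678 bases to mt-Atp6, the mitochondrial gene for a subunit of ATP synthase, which was at 3226 ± 393 TPM. Gm28661 (2114 TPM) and Gm28437 (1598 TPM) are likewise identical to mt-Co2 and mt-Co3 over 681 and 783 bases. Gm29216 (1620 TPM) differs from mt-Co1 (9918 TPM), a subunit of cytochrome c oxidase, at 6 of 492 bases. All 6 differences lie in its first 32 bases, shown here with the differing bases in capitals.
Gm29216, chr1:24615706-24616197 (-), its first bases: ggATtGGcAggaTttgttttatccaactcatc
mt-Co1, the matching bases: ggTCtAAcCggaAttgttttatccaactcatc
A read from the rest of that copy could come from either genome, so the levels of these pairs are uncertain.

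The table has 53453 rows, of which 29297 were listed at 0 in all 6 control libraries. A mean of at least 1 TPM was reached by 13470 rows, 11349 of them nuclear protein-coding genes. At least 5 TPM was reached by 10226 rows, at least 100 by 1067 and at least 1000 by 74. Sequencing depth is unknown, since it cannot be read from TPM. The rows given summed to between 814208 and 846780 TPM, which leaves 15.3 to 18.6% of the full TPM scale outside them. Pairs of libraries correlated at a Pearson r of 0.948 to 0.966 across the rows with a mean of at least 1 TPM, on log2(TPM + 1), which describes genes and not replicates. Rows resembling ribosomal RNA, led by Gm42418 at 94561 TPM, took 22.6% ± 4.74 (SD, n = 6) of the listed TPM, from 18.0% in library 6 to 30.0% in library 5. Mitochondrially encoded rows took 7.08% ± 1.52, cytosolic ribosomal proteins 7.72% ± 0.55 and other protein-coding genes 54.6% ± 3.52. Because TPM is a share, libraries 1 and 5, with 26.6 and 30.0% ribosomal RNA-like TPM, have less left for all other genes. Trimmed-mean scaling factors, which set the bulk of genes level between libraries, were 0.915 and 0.910 for them and 1.01 to 1.10 for the other 4. Where the order of libraries in a gene list matters, the value under that scaling is given too.

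All 5 genes used to check the label were abundant in every control library. Sox2, the factor that keeps neural progenitors undifferentiated, was at 335, 317, 404, 445, 367 and 396 TPM in libraries 1 to 6, and ranked 215 of all rows by its mean of 377 ± 47.5 TPM (SD, n = 6). Nes, which encodes nestin, was at 289, 301, 367, 398, 319 and 380 TPM. Fabp7, the brain fatty acid binding protein of radial glia, was the highest of the 5 at 3276, 2673, 2477, 5405, 3618 and 4126 TPM. Library 4 had the highest Sox2, Nes and Fabp7, and no library stood clear of the rest for Sox2 or Nes. Olig1 was at 1021, 1245, 1401, 1923, 1342 and 1321 TPM, and its partner Olig2 at 549, 722, 658, 717, 691 and 763 TPM. The lowest value of any of the 5 genes in any library was thus 289 TPM, against a level of 100 TPM that 1067 rows reached on average. The label of neural progenitor cultures and these markers did not conflict.

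**Figure D1:**
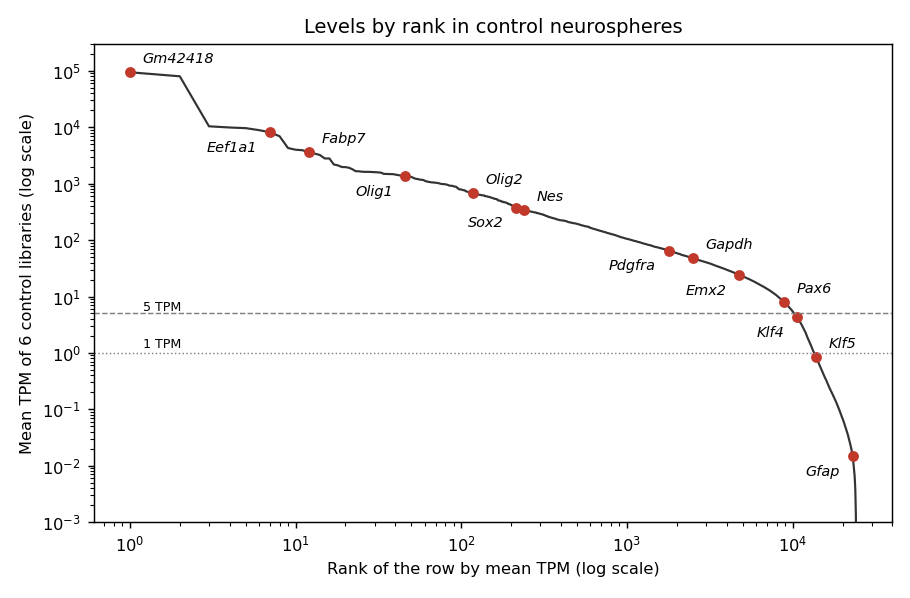
Mean TPM of the 6 control libraries (log scale) against the rank of each row by that mean (log scale), with named genes as red points and lines at 1 and 5 TPM. Fabp7 ranked 12 of all rows, Olig1, Olig2, Sox2 and Nes all lay above 300 TPM, and Klf5 and Gfap lay below 1 TPM.

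Among nuclear protein-coding genes outside the cytosolic ribosomal proteins, Eef1a1, which brings aminoacyl-tRNA to the ribosome, was first at 8157 ± 1028 TPM (SD, n = 6). Ckb, the brain creatine kinase, followed at 4285 ± 350 TPM and Fabp7 came next at 3596 ± 1073 TPM. Cfl1, an actin-severing protein, was at 1805 ± 273 TPM, with library 5 at 1274 TPM and the other 5 between 1811 and 2025 TPM. The list went on with Tpt1, Tuba1a, Eef2, Lars2, Actb, Gm45713, Actg1, Hsp90ab1, Ppia and Txn1, between 1660 and 1378 TPM, and then Olig1 at place 15 with 1375 ± 299 TPM. Ptma, Ftl1, Ppp1r14b, Atp5b and Hnrnpa1 completed the first 20, down to 1171 TPM. Most of these genes serve translation, the cytoskeleton, protein folding and energy supply in any dividing cell. Fabp7 and Olig1 were the members of the first 20 that belong to the 5 identity markers. Lars2, a mitochondrial leucyl-tRNA synthetase, had the widest spread of the 20, from 599 TPM in library 6 to 2540 TPM in library 2 (CV 0.48, and 0.51 with trimmed-mean scaling, past the limit of 0.5 used below). Gm45713 overlaps the ribosomal protein gene Rpl13a on the same strand, and the 2 rows were listed at 1445 and 1402 TPM. Tuba1a shared 67.9% of its 25-base words with other rows, Ftl1 59.9% and Eef1a1 49.6%, so part of their level may stand on other rows or the reverse.

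Gapdh, a glycolytic enzyme often taken as a reference gene, was listed at only 47.5 ± 7.43 TPM. The 21 rows annotated as processed pseudogenes that share its sequence summed to 605 ± 71.5 TPM, and with Gapdh itself to 653 ± 67.2 TPM. The sum ranged from 570 TPM in library 5 to 745 TPM in library 2. The Gapdh row alone holds a small part of the TPM of this sequence family and is uncertain as a level of the gene.

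Of 22 radial glia and neural stem cell genes, 21 had a mean of at least 1 TPM, and the list summed to 6766 ± 1228 TPM (SD, n = 6). Fabp7 made up 53.2% of that sum. Vim, a filament protein partnered with nestin, was at 980, 1090 and 1157 TPM as lowest, median and highest library. Ptprz1, a receptor phosphatase of outer radial glia and oligodendrocyte progenitors, was at a mean of 356 TPM, Sox3 at 198, Slc1a3, the glutamate transporter GLAST, at 152 and Sox9 at 143 TPM. Vim and Sox3 varied little, with CVs of 0.067 and 0.093. Hopx, a marker of outer radial glia, was the member below 1 TPM (0.0924 TPM, listed at 0 in 4 libraries). Pax6, a factor of dorsal radial glia, was at 8.12 ± 1.46 TPM. Id4, an inhibitor of basic helix-loop-helix factors, was the 1 member with a mean of at least 5 TPM and a CV of at least 0.5: it was at 1.66, 2.61, 5.13, 7.64, 5.87 and 10.1 TPM in libraries 1 to 6, lowest in libraries 1 and 2. In bulk RNA, fewer cells of a type and less RNA per cell cannot be told apart, here or in any list below.

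The Notch pathway keeps progenitors from differentiating through contact between neighbours. Of its 19 listed genes 16 reached 1 TPM, for a sum of 584 ± 89.3 TPM. The target Hes5 was the highest at 125 ± 39.7 TPM, from 77.2 in library 2 to 187 in library 4, and the target Hes1 was at 37.3 TPM. Lfng, a glycosyltransferase that modifies Notch receptors, was at 87.7 ± 9.16 TPM. The ligands Dll3 and Dll1 were at 70.6 and 62.5 TPM. Among receptors Notch1 was at 56.9, Notch3 at 32.0 and Notch2 at 7.47 TPM, whereas Notch4 was at 0.515 TPM. Notch receptors, ligands, modifiers and targets were therefore all represented. No member at 5 TPM or more had a CV of 0.5, which only 1.63% of nuclear protein-coding rows of that level reached.

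Growth factor receptors decide which mitogens a neurosphere can answer. Of 16, 13 reached 1 TPM, and all 13 reached 5 TPM. Egfr was highest at 95.5 ± 15.3 TPM (79.5 to 124), followed by Pdgfra at 65.3 ± 26.5, Fgfr1 at 51.3 ± 6.60 and Ntrk2, the BDNF receptor, at 42.3 ± 7.63 TPM. Met, Erbb3 and Pdgfrb, the receptor of pericytes, stayed below 1 TPM. Pdgfra had the wider spread: it was at 22.4, 48.1, 95.1, 85.5, 66.0 and 74.5 TPM in libraries 1 to 6, so library 1 was the lowest by a wide margin.

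Temporal competence genes mark how far progenitors have moved from early to late fates. The late factors of the nuclear factor I family were well expressed: Nfib at 94.8 ± 11.3, Nfix at 70.6 ± 9.72 and Nfia at 41.0 ± 4.20 TPM. Nr2f1, a nuclear receptor, was at 59.2 ± 10.8 TPM, with library 1 at 38.6 TPM and the other 5 between 58.6 and 70.1 TPM. Of the early genes, Lin28a was listed at 0 in all 6 libraries, Lin28b at a mean of 0.0281 TPM and Igf2bp1 at 0.56 TPM. Hmga2, another early gene, was at 4.35 ± 1.27 TPM. In all, 8 of the 11 listed genes reached 1 TPM.

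Cell cycle genes were among the steadiest of the lists. All 20 DNA replication genes reached 1 TPM and summed to 1465 ± 103 TPM (CV of the sum 0.0703). Pcna, the sliding clamp of DNA polymerase, was at 334 ± 25.6 TPM, Rrm2 at 217 ± 19.9, Mcm7 at 156 ± 15.1 and Mcm3 at 98.5 ± 6.08 TPM. All 20 mitosis genes reached 5 TPM and summed to 1305 ± 76.5 TPM (CV of the sum 0.0586). Top2a, a topoisomerase of dividing cells, was at 184 ± 16.5 TPM, Ccna2 at 124 ± 9.52 and Cdc20 at 108 ± 6.74 TPM. Ccnb1, a mitotic cyclin, was at 121 TPM in library 4 and between 89.3 and 93.1 TPM in the other 5. No member of either list with a mean of 5 TPM had a CV of 0.5, which only 1.63% of nuclear protein-coding rows of at least 5 TPM reached. Ccna2 overlaps Exosc9, Mcm7 overlaps Cops6 and Cdc20 overlaps Elovl1, each on the opposite strand; the sources used here do not say whether the quantification used strand, so the reads of such pairs cannot be told apart.

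Genes of oligodendrocyte progenitors were present as a set. All 11 had a mean of at least 1 TPM and 10 at least 5 TPM, and the sum was 2722 ± 487 TPM, of which Olig1 made up 50.5%. Bcan, a proteoglycan of the brain matrix, was at 198, 332 and 406 TPM as lowest, median and highest library. Sox8 was at 110 ± 31.4 TPM, and Sox10, which drives the lineage beyond its first step, at 15.8, 29.9, 63.4, 67.0, 42.4 and 46.4 TPM. Cspg4, which encodes NG2, was at 45.7 ± 8.07 TPM and Gpr17, a receptor of committed progenitors, at 18.2 ± 7.40 TPM. Library 1 was the lowest for 9 of the 11 genes, as deposited and with trimmed-mean scaling. Its sum was 1992 TPM against 2580 to 3503 TPM in the other 5. With trimmed-mean scaling it was 2219 TPM against 2516 to 3286 TPM. Across all nuclear protein-coding rows of at least 1 TPM, library 1 was lowest for 3907 of 11349 as deposited and 2383 after that scaling.

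Myelin genes were mostly below 1 TPM. Of 13, 5 reached 1 TPM, and Cnp, an enzyme already present before myelin forms, made up 84.5% of the sum of 116 TPM. Cnp was at 98.4 ± 33.5 TPM and overlaps Dnajc7 on the other strand. Ugt8a, which makes myelin galactolipids, was at 6.72 ± 1.58 TPM, with library 1 at 3.57 and the others between 6.92 and 7.95 TPM. Bcas1, a gene of oligodendrocytes that begin to myelinate, was at 6.35 TPM. Mbp, myelin basic protein, was at a mean of 0.231 TPM, while Mobp and Mal were listed at 0 throughout.

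Levels differed widely between the astrocyte genes. Of 16, 12 reached 1 TPM. Apoe, a lipid carrier, was at 126 ± 26.3 TPM, Aldoc at 97.8 ± 13.0 and Id3 at 81.4 ± 12.2 TPM. Aldoc was at 73.0 TPM in library 5 and between 94.4 and 106 TPM elsewhere. Several of these genes are also expressed by radial glia. Gfap, the filament of mature astrocytes, was at 0.015 TPM and listed at 0 in 4 libraries, Gjb6 was at 0.0278 and Agt at 0.0688 TPM. S100b at 0.956 and Aqp4, the water channel of astrocyte endfeet, at 1.36 TPM lay near the limit of 1 TPM.

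**Figure D2:**
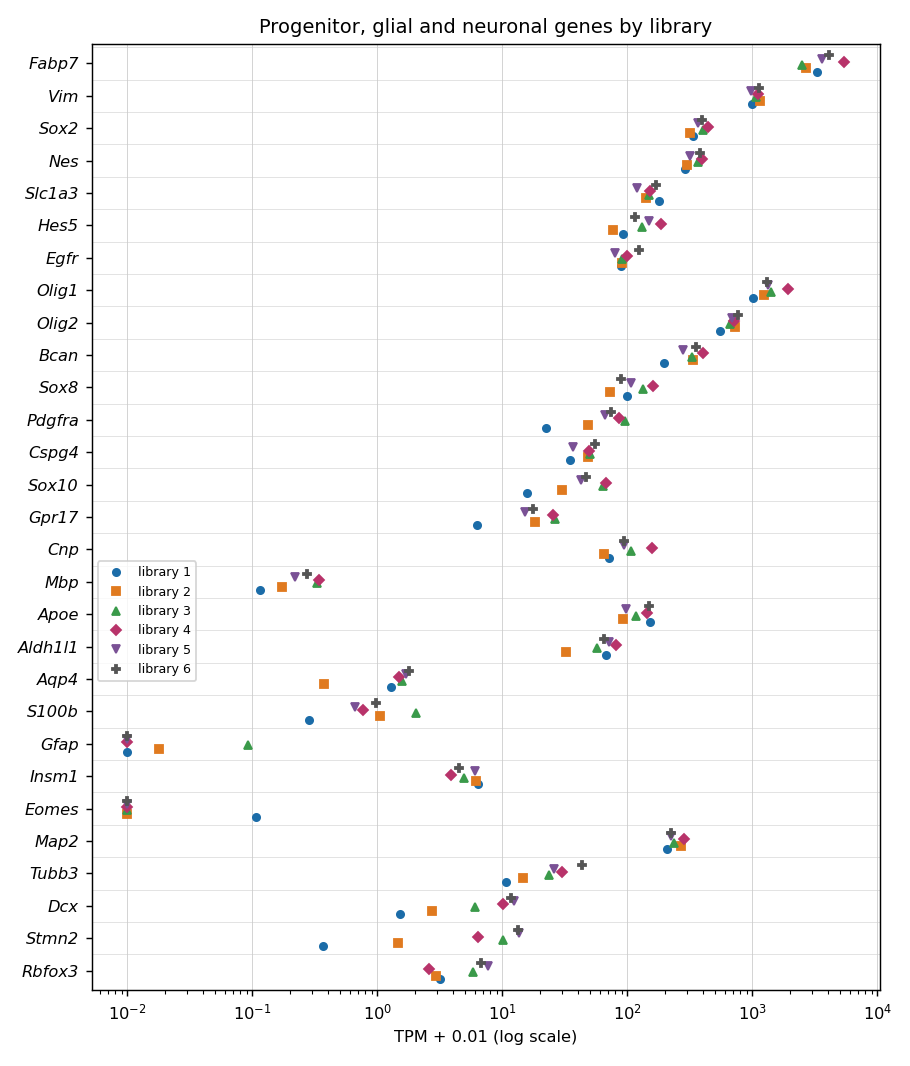
TPM + 0.01 (log scale) of progenitor, oligodendrocyte, astrocyte and neuronal genes, 1 symbol per control library, where a symbol at 0.01 is a value listed at 0. Fabp7, Vim, Olig1 and Olig2 lie above 500 TPM, Mbp and Gfap below 1 TPM, and Stmn2 and Dcx lie lowest in libraries 1 and 2.

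Of 11 intermediate progenitor and proneural genes, 5 reached 1 TPM. Hes6, an antagonist of Hes1, was at 100 ± 13.3 TPM, Btg2 at 84.4 ± 19.5 and Gadd45g at 27.3 ± 5.74 TPM. Neurog1 and Neurog2, the proneural factors of the dorsal forebrain, were listed at 0 in all 6 libraries. Eomes, which marks cortical intermediate progenitors, was above 0 in library 1 alone, with a mean of 0.0162 TPM.

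Pan-neuronal genes were all present. All 17 reached 1 TPM, for a sum of 589 ± 73.3 TPM. Map2, a dendritic microtubule protein, was at 240 ± 29.4 TPM, Gap43, a growth cone protein, at 141 ± 34.8 and Stmn3 at 75.5 ± 19.3 TPM, while Tubb3, neuronal tubulin, was at 24.6 ± 11.6 TPM and overlaps the row Gm20388. Stmn2, a microtubule regulator of outgrowing axons, was at 0.36, 1.46, 10.1, 6.36, 13.5 and 13.4 TPM in libraries 1 to 6. Dcx, doublecortin of migrating neurons, was at 1.49, 2.71, 6.04, 10.1, 12.3 and 11.6 TPM. Both genes were lowest in libraries 1 and 2, and these 2 libraries did not overlap the other 4. The sum of the list was low in library 1 alone, at 447 TPM against 577 to 648 TPM.

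Most GABAergic genes of at least 1 TPM, though not all, were also lowest in libraries 1 and 2. Of 15, 11 reached 1 TPM and 3 reached 5 TPM. The list summed to 23.6, 22.1, 50.2, 60.6, 70.2 and 77.4 TPM in libraries 1 to 6. Gad1, which makes GABA, was at 1.89, 5.76, 10.6, 13.0, 16.1 and 23.1 TPM. Sst, the neuropeptide somatostatin, was at 1.29, 0.643, 15.1, 19.3, 14.9 and 7.81 TPM. Libraries 1 and 2 were again the lowest pair for both. Dlx2, a ventral forebrain factor, was at 4.75 ± 1.06 TPM and did not follow this order. With trimmed-mean scaling it was highest in library 1, at 7.54 TPM against 3.86 to 4.83 TPM elsewhere. Over the list, libraries 1 and 2 were the 2 lowest for 8 of the 11 members of at least 1 TPM as deposited and for 7 with trimmed-mean scaling. The same held for 8 of 17 pan-neuronal genes under both. Over all 11349 nuclear protein-coding rows the share was 13.5% as deposited and 10.8% with that scaling. This order was picked out after the values were seen.

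Of 11 cortical projection neuron genes, 4 reached 1 TPM, among them Sox5 at 15.0, Bcl11b at 8.66 and Cux2 at 5.28 TPM. Bcl11b, also a gene of striatal neurons, was at 3.90, 4.10, 7.86, 8.53, 12.6 and 14.9 TPM, and Cux2 ranged from 1.09 in library 1 to 9.47 TPM in library 6. Tbr1 was at a mean of 0.0197 TPM, Slc17a7, a vesicular glutamate transporter, at 0.0228 and Fezf2 was listed at 0.

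Among the regional lists, the pan-telencephalic one was present in full. All 6 of its genes reached 5 TPM, with a sum of 178 ± 24.3 TPM. Lhx2, a factor of forebrain progenitors, was at a mean of 42.6 and Six3 at 36.9 TPM. Six3 overlaps Six3os1, an opposite-strand transcript listed at 49.1 TPM. Bcl11a was at 10.4 ± 4.44 TPM.

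Pallial and subpallial genes were unequally represented. Of 9 pallial genes, Emx2 (24.3 ± 2.02 TPM, 21.0 to 26.6) and Pax6 (8.12 TPM) reached 1 TPM, and Dmrta2 was at 0.325 TPM. Emx1, Dmrt3, Lhx9 and Neurog2 were listed at 0 in all 6 libraries. Of 11 subpallial genes, 9 reached 1 TPM. Gsx2, a factor of the lateral ganglionic eminence, was at 5.80, 6.75 and 12.5 TPM as lowest, median and highest library. Gsx1 was at 5.06 ± 2.52 TPM and as low as 0.683 TPM in library 1. Nkx2-1, the factor of the medial ganglionic eminence, was at 1.08, 1.88, 8.38, 2.61, 3.76 and 0 TPM, so its presence differed between libraries more than that of Gsx2. Lhx6, downstream of it in migrating interneurons, was at a mean of 0.767 TPM, with library 5 at 2.81 TPM. The Dlx genes are in more than 1 of these lists.

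Most genes listed for more posterior regions and for the neural tube were below 1 TPM. Among the exceptions, Tcf7l2, Otx2 and Nkx2-2 each had a mean above that of Gsx2 (8.05 TPM). Of 9 diencephalic genes, Tcf7l2 (10.4 ± 1.89 TPM) and Irx1 (3.10 ± 1.69) reached 1 TPM, and Otp, Rax and Lhx5 were listed at 0. Of 10 midbrain and isthmus genes, Otx2 was at 13.4 ± 3.15 TPM (10.3 to 19.0) and En2 at 2.02 ± 1.04 TPM, while Pax2 was at 0.0116 and Fgf8 at 0.144 TPM, and Pax5 and Wnt1 were listed at 0. Otx2 is also made by the choroid plexus. Of 39 Hox genes, whose nested expression marks hindbrain and spinal cord, 37 were listed at 0 in all 6 libraries. Hoxa13 and Hoxd13 had means of 0.168 and 0.0242 TPM. Of 11 genes of the ventral and dorsal neural tube, 3 reached 1 TPM: Nkx2-2, also an oligodendrocyte factor, at 18.8 ± 3.74, Dbx2 at 3.67 and Nkx6-2 at 1.32 TPM. Dbx2 was at 8.30 TPM in library 1 and 2.08 to 4.07 TPM in the others, and Nkx6-2 overlaps Inpp5a. Shh was at a mean of 0.0832 TPM, and Foxa2 of the floor plate was listed at 0.

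**Figure D3:**
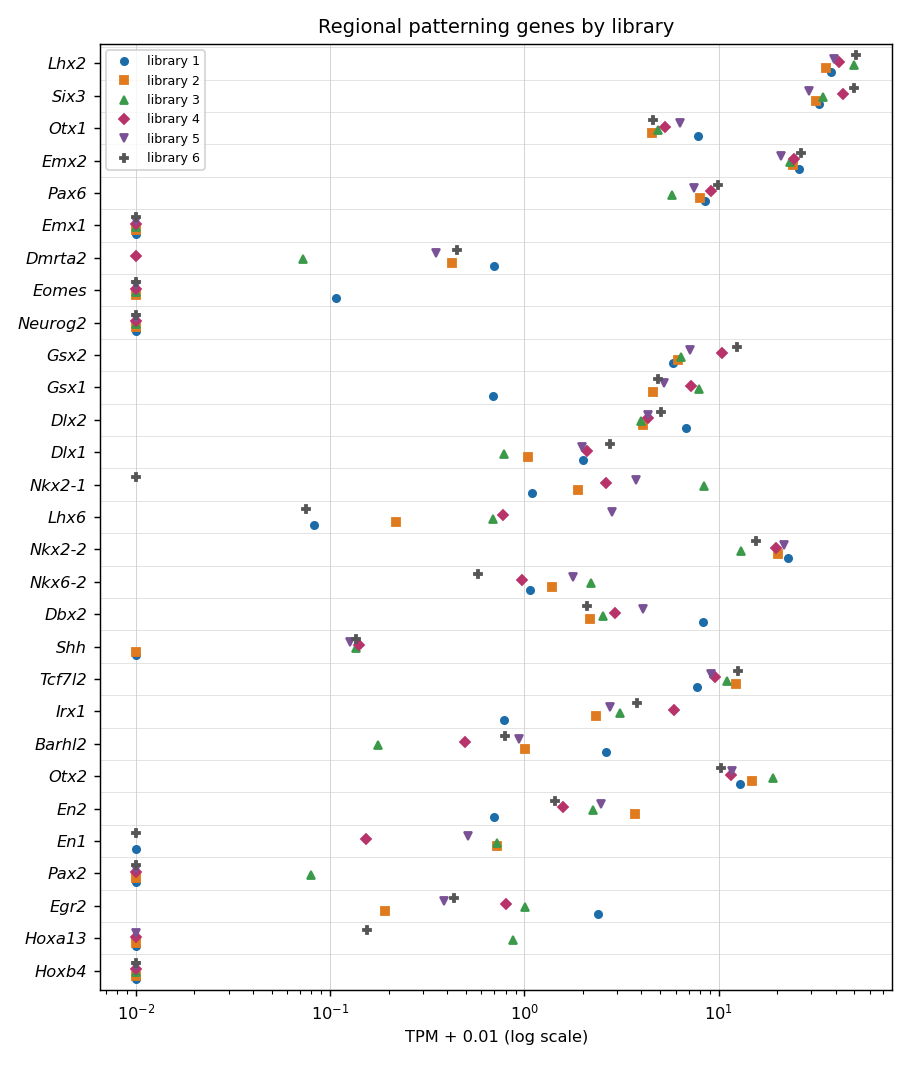
TPM + 0.01 (log scale) of regional patterning genes, 1 symbol per control library, where a symbol at 0.01 is a value listed at 0. Lhx2 and Emx2 lie above 20 TPM in all 6 libraries, Emx1 and Neurog2 lie at 0, and Nkx2-1 runs from 0 in library 6 to 8.38 TPM in library 3.

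Markers of other cell types that embryonic brain could carry over were at sums of 0.324 to 1.99 TPM for the microglia, endothelial and erythroid lists, and higher for some other types. Of 14 microglia and macrophage genes, Cd68 alone reached 1 TPM (1.30 TPM), the list summed to 1.99 TPM, and Aif1, Cx3cr1, C1qa, Ptprc and Tyrobp were listed at 0. Of 11 endothelial genes, Egfl7 alone reached 1 TPM (1.26 TPM, overlapping Gm20532 at 18.9 TPM), and the sum was 1.94 TPM. All 7 listed globin genes were at 0 in all 6 libraries, and the 11 erythroid genes summed to 0.324 TPM. Of 13 mural, meningeal and fibroblast genes, Myl9 (2.90 TPM), Acta2 (2.59) and Tagln (2.00) reached 1 TPM, and the sum ran from 3.01 TPM in library 3 to 14.8 TPM in library 2. Of 10 choroid plexus and ependymal genes, 3 reached 1 TPM, with Otx2 making up 57.4% of the sum. Ttr, the main choroid plexus transcript, was listed at 0, whereas Foxj1, a factor of ciliated cells, was at 7.82 ± 1.36 TPM, and the sum was 28.6 TPM in library 3 and 21.2 to 23.1 TPM in the others. Of 8 neural crest and Schwann genes 3 reached 1 TPM, among them Dhh at 31.8 TPM (18.0 to 45.5) and Sox10, which the oligodendrocyte progenitor list shares. The 11 epithelial and pluripotent genes summed to 0.643 TPM, and Pou5f1 was listed at 0.

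The genes the study is about were low at baseline. Klf4, a zinc finger factor, was at 6.88, 4.96, 3.12, 2.07, 3.18 and 5.99 TPM in libraries 1 to 6 (mean 4.37 ± 1.87). Its 3 highest values were in libraries 1, 2 and 6. Klf5 was at 0.835, 0.371, 0.899, 0.938, 0.762 and 1.29 TPM (mean 0.849 ± 0.297), above 0 in every control library and above 1 TPM in library 6 only. On the shared length-corrected scale Klf4 was above Klf5 in each of the 6 libraries.

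Spread between libraries was described among rows with a mean of at least 5 TPM. The labels do not say which library used which kit, so differences of embryo and of preparation cannot be told apart. The median CV was 0.169 over 10226 rows and 0.164 over 9277 nuclear protein-coding rows. A CV of at least 0.5 was found in 296 rows, 2.89%, and in 151 nuclear protein-coding rows, 1.63%. Spread fell with level: the median CV of protein-coding rows was 0.208 between 5 and 20 TPM, 0.144 between 20 and 100 TPM and 0.111 from 100 TPM. Other rows varied more, with 145 of 949, or 15.3%, at a CV of 0.5. Among those, 86 of 221 small noncoding rows and 30 of 495 pseudogene rows passed.

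**Figure D4:**
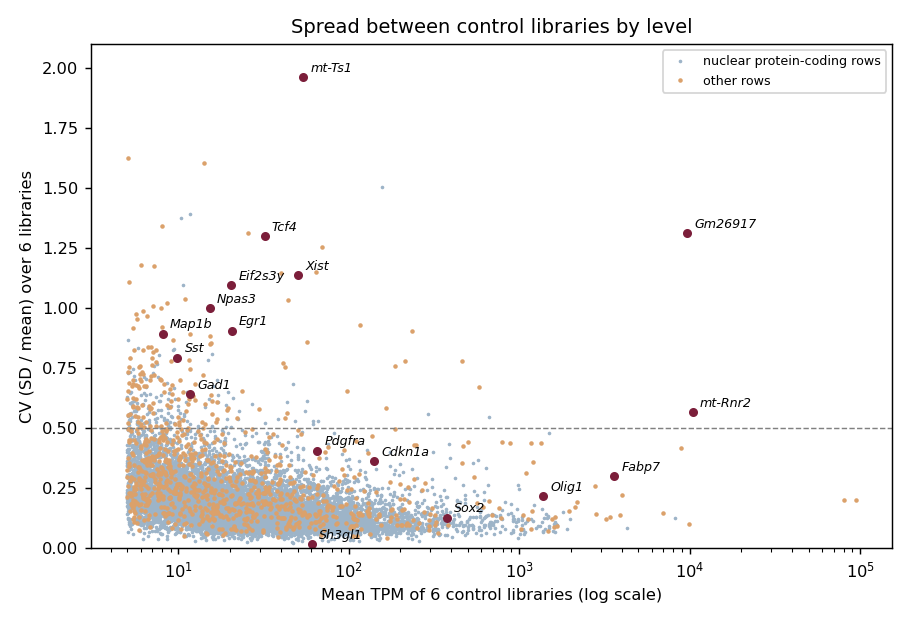
CV over the 6 control libraries against mean TPM (log scale) for rows with a mean of at least 5 TPM; blue points are nuclear protein-coding rows, orange points other rows, and the dashed line marks a CV of 0.5. Sox2 and Sh3gl1 lie low, and mt-Ts1, Gm26917, Tcf4, Xist and Eif2s3y lie above a CV of 1.

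Of the 25 regular symbols with the largest CV, 15 were short or copied rows: 4 processed copies of ribosomal protein genes, 2 of the chromatin protein genes Hmgb1 and Hmgn2, 4 mitochondrial tRNAs, 3 miRNAs and 2 small nucleolar RNAs. The largest CV, 1.96, was that of mt-Ts1, a mitochondrial serine tRNA that overlaps mt-Co1, at 271 TPM in library 4 and 5.87 to 22.3 TPM in the others. Rpl34-ps1 was at 661 TPM in library 4 and 122 to 208 TPM elsewhere, and Hmgn2-ps1 at 211 TPM in library 3 and 21.6 to 71.5 TPM elsewhere. Rps19-ps6 was at 135 TPM in library 5 and 16.5 to 33.5 TPM elsewhere. Rpl3-ps2 was at 24.1 and 26.6 TPM in libraries 5 and 6 and 2.82 to 3.89 TPM in the other 4. The processed copies among the 25 share 73.2 to 100% of their 25-base words with other rows, so their levels are uncertain. Each was high in 1 or 2 libraries only. All 3 miRNA rows and both small nucleolar rows lie inside a larger transcript, Mir7079 inside Rpl13 and Snord100 inside Rps12, for example.

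Sex-linked genes separated the 6 embryos cleanly. Xist was at 122, 107 and 73.6 TPM in libraries 2, 3 and 5 and at 0.0675 to 0.179 TPM in libraries 1, 4 and 6. Eif2s3y, a translation factor gene on chromosome Y, was at 40.9, 41.8 and 40.1 TPM in libraries 1, 4 and 6 and listed at 0 in the other 3. Ddx3y, Kdm5d and Uty were above 0 in those same 3 libraries only. The CVs of Xist (1.14), Eif2s3y (1.10) and Ddx3y (1.10) thus mark 3 libraries of each kind. The pair of libraries 1 and 2 described above for neuronal genes holds 1 library of each kind.

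The other protein-coding genes among the 25 were Tcf4, Npas3, Egr1, Map1b and Baiap2. Gm-named rows were left out of the 25. Of those annotated as protein-coding, Gm10800, Gm8797 and Gm21738 had larger CVs than Tcf4. Gm10800 was at 541 and 356 TPM in libraries 1 and 2 and 2.74 to 21.5 TPM in the others. Gm21738 was at 29.4 and 28.0 TPM in libraries 1 and 2 and 0.319 to 3.11 TPM in the others. Gm8797 was high in library 2 alone, at 44.9 TPM. Tcf4, a basic helix-loop-helix partner factor on chromosome 18, was at 117 TPM in library 2 and 11.4 to 23.6 TPM in the others, so that 1 library set its CV of 1.30. Npas3, a brain transcription factor, was at 13.2, 41.6 and 24.5 TPM in libraries 2, 3 and 4 and at 3.66 to 4.27 TPM in libraries 1, 5 and 6. Map1b, a microtubule protein of growing axons, was at 0.994, 0.88, 7.46, 5.89, 14.9 and 18.5 TPM in libraries 1 to 6, and the lowest 2 did not overlap the rest. Baiap2, an actin regulator, was at 13.2 TPM in library 1 and 1.28 to 6.19 TPM in the others. Meg3 and Rian, noncoding RNAs of 1 imprinted cluster on chromosome 12, were also in the list. Meg3 was at 1.51, 2.38, 11.0, 6.73, 3.40 and 22.3 TPM, and Rian at 0.513, 0.446, 2.01, 7.57, 12.7 and 11.0 TPM. Both had their lowest 2 values in libraries 1 and 2. Mir1906-1, a row inside Meg3, was listed at 0 in library 1 and at 31.0 TPM in library 6.

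Among the 151 variable nuclear protein-coding rows, library 6 was highest in 47 (31.1%) and library 1 lowest in 50 (33.1%). Over all 9277 nuclear protein-coding rows of at least 5 TPM these shares were 30.6 and 33.6%, so the variable rows were near the background in both. Libraries 1 and 2 were the lowest pair in 29 and the highest pair in 15, together 29.1%, which was more than any other pair of libraries, the next being libraries 2 and 6 with 30 rows. Over all 9277 rows libraries 1 and 2 were such a pair in 16.8%. With trimmed-mean scaling the shares were 31.1% of the 151 rows and 21.4% of all. This pair was singled out after the values were seen. Mitochondrial ribosomal RNA was also highest in these 2: mt-Rnr2 was at 16312 and 19345 TPM in libraries 1 and 2 and at 5570 to 8218 TPM in the other 4. Its part in the order of the libraries was not tested. The ribosomal RNA-like share did not pair them, at 26.6% in library 1 and 18.7% in library 2. Gm26917, another ribosomal RNA-like row, paired libraries 4 and 5 instead, at 28407 and 23308 TPM against 830 to 2627 TPM in the other 4.

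The integrated stress response, p53 target and immediate early lists had their highest sums in libraries 1, 2 and 6. With trimmed-mean scaling these sums were highest in libraries 1 and 2, the pair in which most GABAergic genes were lowest. A link between the high and the low lists of this pair was not tested. The integrated stress response, through which the factor Atf4 raises amino acid synthesis genes, had all 10 listed genes above 5 TPM. Their sum was 1269, 1423, 1071, 935, 983 and 1428 TPM, highest in libraries 1, 2 and 6. Phgdh and Psat1, enzymes of serine synthesis, were at 360 ± 41.2 and 330 ± 49.4 TPM, Atf4 at 183 ± 42.6 and Asns at 125 ± 37.2 TPM. Chac1, a target that degrades glutathione, was at 33.5, 26.5, 9.01, 5.48, 12.8 and 26.2 TPM, and Trib3 at 9.77, 13.0, 4.04, 1.88, 7.05 and 17.2 TPM. Libraries 1, 2 and 6 were the 3 highest for 8 of the 10 genes, as deposited and with trimmed-mean scaling, against 7.16 and 7.71% of all nuclear protein-coding rows of at least 1 TPM. Libraries 1 and 2 were the 2 highest for 1 of the 10 as deposited and for 5 with that scaling. Over all such rows they were so for 445 and 1182 of 11349. This trio and this pair, too, were picked after the values were seen.

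The 12 targets of p53, the stress-activated tumour suppressor, all reached 5 TPM and summed to 869, 948, 709, 552, 571 and 849 TPM. Bax, a cell death effector, was at 200 ± 30.0 TPM, Cdkn1a, which halts the cycle, at 199, 185, 113, 74.5, 102 and 175 TPM, Ccng1 at 107 and Phlda3 at 70.5 TPM. Bax overlaps Gm45808 on the same strand. Libraries 1, 2 and 6 were the 3 highest for 7 of 12, and for 6 of 12 with trimmed-mean scaling. The shares over all nuclear protein-coding rows of at least 1 TPM were 7.16 and 7.71%. Libraries 1 and 2 were the 2 highest for 5 of 12 as deposited and 8 of 12 with that scaling, against 445 and 1182 of 11349 such rows. Both choices of libraries were made after the values were seen.

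Immediate early genes are switched on quickly by many stimuli. Of 14 listed, 13 were in the rows analysed here, with Junb not among them, and 9 reached 1 TPM. Jun was at 73.2 ± 12.7, Dusp1 at 23.9 ± 4.85, Ier2 at 22.6 and Nr4a1 at 22.3 TPM. Egr1 was at 27.5, 54.0, 8.96, 4.41, 7.50 and 20.8 TPM, and Arc at 20.2, 10.3, 9.64, 4.27, 4.12 and 11.2 TPM, each highest in libraries 1, 2 and 6. Libraries 1, 2 and 6 were the 3 highest for 6 of the 9, and for 5 with trimmed-mean scaling. The shares over all nuclear protein-coding rows of at least 1 TPM were 7.16 and 7.71%. Libraries 1 and 2 were the 2 highest for 3 of the 9 as deposited and 5 with that scaling, against 445 and 1182 of 11349 such rows. Here, too, the libraries were picked after the values were seen.

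Of the metabolic lists, cholesterol synthesis had the higher sum. All 12 cholesterol synthesis genes reached 5 TPM, for a sum of 1758 ± 258 TPM. Hmgcs1, an early enzyme of the pathway, was at 586 ± 79.3 TPM, Insig1 at 215 ± 53.2 and Sqle at 184 ± 23.2 TPM. Library 4 was highest for 9 of these 12, and for 7 with trimmed-mean scaling, against 3054 and 1985 of 11349 rows. Of 12 hypoxia and glycolysis genes, 11 reached 1 TPM, for a sum of 1052 ± 120 TPM, led by Pgk1 at 456 ± 49.4, Ldha at 302 ± 47.8, Ddit4 at 180 ± 36.0 and Vegfa at 36.4 ± 10.7 TPM. Interferon response genes were low: 4 of 12 reached 1 TPM, Bst2 the highest at 12.3 ± 1.61 TPM, with Stat2 at 6.43 and Irf9 at 3.34 TPM.

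**Figure D5:**
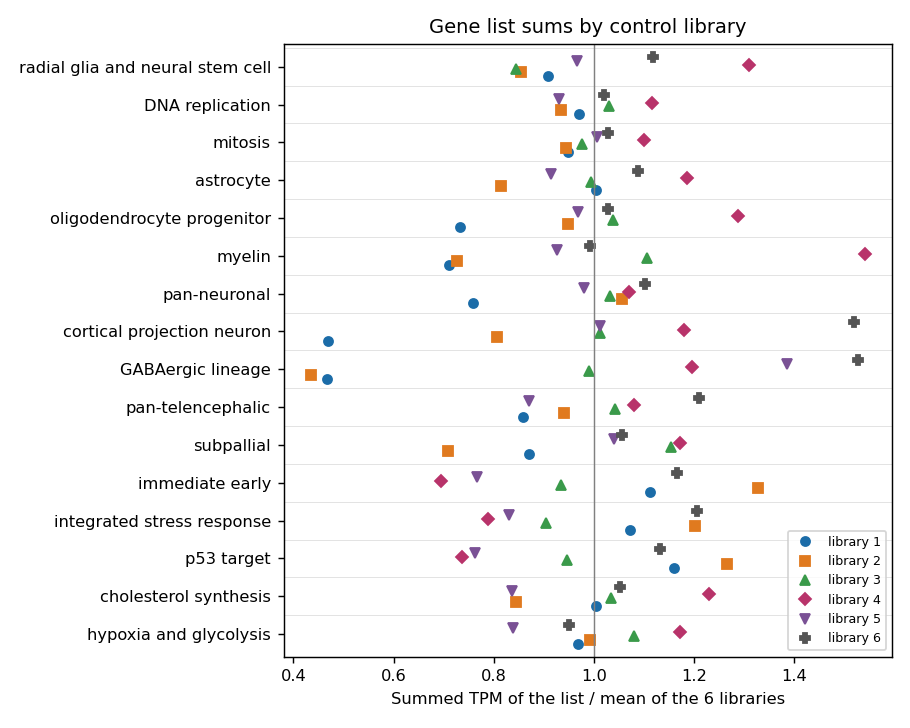
Summed TPM of 16 gene lists in each control library, divided by the mean of the 6 libraries, 1 symbol per library, as deposited. The GABAergic sums of libraries 1 and 2 lie below 0.5, mitosis and DNA replication stay close to 1, and libraries 1, 2 and 6 lie above 1 for the integrated stress response and p53 targets.

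At the other end, 10 genes differed least between the libraries on the TPM scale as deposited. Sh3gl1, an endocytic adaptor, was at 60.2, 61.0, 60.5, 61.6, 59.3 and 61.7 TPM (CV 0.015). Rcc1, which loads the GTPase Ran on chromatin, was at 47.0 ± 0.964 TPM and Hprt, a purine salvage enzyme, at 46.4 ± 1.09 TPM. Immp1l, Acaa2, Ube2v1, Smad3, Sept9, Sf3b5 and Gde1 followed, with CVs of 0.0244 to 0.0328 and means from 12.4 TPM for Smad3 to 257 TPM for Sept9. Ube2v1 shares 60.7% of its words with other rows. With trimmed-mean scaling the CVs of these 10 were 0.0747 to 0.107, and none was among the 10 steadiest (ranks 1155 to 2724 of 9292 regular symbols), so this order holds for the TPM scale as deposited only.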

How the data were processed

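Control libraries were mapped to columns of 1 deposited table through the library number in the labels, and all 11 columns could be mapped. The values are TPM made by the authors before deposit, and depth cannot be recovered from TPM, so no counting interval is given. Per the submitters' processing notes, HISAT2, StringTie, HTSeq and DESeq2 and the build GRCm38.p5 were used, without versions, roles or the strand setting. Per the labels' protocols, RNA came from an RNeasy kit and libraries from a directional kit and a KAPA kit, without a statement of which library used which.

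No group was compared. A library was taken as apart from the other 5 where Dixon's ratio, the gap to the nearest value over the whole range, was above its critical value for 6 samples. For each row the mean, SD and CV over 6 libraries were computed with pandas 2.3.3 and numpy 2.4.6 (Python 3.11.15). Rows with a mean of at least 1 TPM were called present, and spread was described from a mean of 5 TPM, with a CV of 0.5 as the limit. Of 53453 identifiers 53255 were matched to a symbol and 53341 to the GENCODE M21 annotation. Ribosomal RNA-like rows are annotated rRNA plus 7 named rows, 3 of them of identical sequence, placed there from background knowledge. Shared sequence was measured as the share of a transcript's 25-base words found in other rows. The computation was checked on simulated data. Each gene list, 35 in all with 437 different genes, was written out by hand. The control samples and the lists were chosen with earlier results of these data known. Named genes are the 5 markers, Klf4 and Klf5, the 20 highest nuclear protein-coding genes outside ribosomal proteins, the 10 highest rows, the 4 highest members of each list and any of its members with a CV of 0.5, the 25 most and 10 least variable symbols, and list members given within a count; other members, such as Lhx6, Gpr17 and Cspg4, were named after their values were seen. Some genes that this rule names are not reported here. Alternatives changed the TPM minimum, the measure of spread, the scaling, or left out each library.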

Additional observations from a re-analysis of the deposited data

Results flagged for a closer look

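Of 212 values examined (named genes of at least 1 TPM, list sums and shares of row classes), 18 had 1 library far from the other 5, as judged by Dixon's ratio, the gap to the nearest value divided by the whole range, above the critical value for 6 samples. With trimmed-mean scaling 11 of the 18 stayed above it. For normal values that were not picked by their spread, chance alone gives about 1 in 20 above the critical value. The values examined include symbols and list members picked for a large CV, so this rate does not apply to them. Many values here also move together.

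Low values in a single library were seen for Cfl1 (1274 TPM, library 5), Aldoc (73.0 TPM, library 5), Nr2f1 (38.6 TPM, library 1), Ugt8a (3.57 TPM, library 1) and the pan-neuronal sum (447 TPM, library 1). With trimmed-mean scaling the pan-neuronal sum of library 1 was 498 TPM and stayed apart from the other 5, at 589 to 642 TPM, as did Ugt8a. Cfl1 (1417 against 1759 to 2052 TPM), Aldoc (81.2 against 91.7 to 118 TPM) and Nr2f1 (43.0 against 53.2 to 72.0 TPM) no longer passed the critical value under that scaling.

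High values in a single library were seen for Ccnb1 (121 TPM, library 4), Dbx2 (8.30 TPM, library 1), Tcf4 (117 TPM, library 2) and the choroid plexus and ependymal sum (28.6 TPM, library 3). With trimmed-mean scaling Ccnb1 (114 against 83.1 to 102 TPM) and the choroid plexus and ependymal sum (27.8 against 19.8 to 25.4 TPM) no longer passed, while Dbx2 and Tcf4 did. Rows copied from other genes gave Rpl34-ps1 (661 TPM, library 4), Hmgn2-ps1 (211 TPM, library 3), Rps19-ps6 (135 TPM, library 5) and Rpl15-ps2 (25.4 TPM, library 1). Short rows gave mt-Ts1 (271 TPM, library 4), mt-Tf (149 TPM), mt-Tk (20.9 TPM), Mir7115 (19.3 TPM) and Mir7079 (21.4 TPM), the last 4 in library 2. Of the copied and short rows, mt-Tf and mt-Tk no longer passed with that scaling.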

How the results depend on the processing

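The number of genes present, 13470, stayed within 1.5 times under every alternative run, from 11805 to 14941. The number of variable rows, 296, was 106 with a mean of at least 10 TPM, 1582 with at least 1 TPM, 11554 with no minimum, 460 by the SD of log2(TPM + 0.1) and 568 after rescaling without mitochondrial and ribosomal RNA-like rows. It was 276 to 339 when 1 library was left out. Of the 20 most variable rows, 1 was kept with a mean of at least 1 TPM, 0 with no minimum, 12 by the SD of log2(TPM + 1), 8 by that of log2(TPM + 0.1), 10 after the rescaling, and 11 to 17 with 1 library left out, the fewest without library 2. In an alternative chosen after seeing the data, without libraries 1 and 2 together, 243 rows were variable and 10 of the 20 were kept. Of the 20 most abundant rows, 7 were kept after the rescaling, by its construction, and 19 to 20 with 1 library left out. The share of the 100 most abundant rows, 43.51%, was 22.37% after it and 42.48 to 44.40% with 1 library left out. For the other changes the cause was not tested. Trimmed-mean scaling left all 35 list sums within 1 SD (0.968 to 1.02 times the deposited sum in the 32 lists with a sum of at least 1 TPM; the Hox list went from 0.193 to 0.184 TPM). The highest library was kept for 20 and the lowest for 20 of these 32, so which library leads a list depends on the scaling. Depth is unknown, so values below 1 TPM have no stated precision. No paired analysis was possible because no groups were compared.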
